A study of Zea mays with 6 samples.

Results

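Thioredoxins are small proteins that reduce disulfide bonds in other proteins, and protein disulfide isomerases use the same fold to make and reshuffle disulfide bonds in proteins entering the secretory pathway. Plants keep separate thioredoxins in the cytosol (type h), the mitochondrion (type o) and the plastid (types m, f, x, y and z). Electrons reach them from NADPH through NADPH-dependent thioredoxin reductases, or, in the plastid, from photosynthetic ferredoxin through ferredoxin-thioredoxin reductase. The family described here holds every gene whose deposited annotation lists the Pfam thioredoxin domain and not the glutaredoxin domain, 78 of 42508 genes in the count table. Names are those of the closest Swiss-Prot protein in that annotation, mostly a rice or Arabidopsis protein, so several maize genes can carry 1 name, and 1 of the 78 has no such match.

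RNA was sequenced from immature ears of 2 maize lines at the stage when the inflorescence meristem forms spikelet pair meristems, with ear primordia 1.5 to 2.0 mm long from plants with 6 to 9 leaves. Line A12 has the genotype qKRN5.04b teosinte and line B46 the genotype qKRN5.04b maize. Both are nearly isogenic recombinant inbred lines (NIRILs) from a cross of teosinte with maize, both were raised under standard growth conditions, and the locus is a kernel row number locus on chromosome 5. Each line gave 3 libraries, and each library pooled at least 50 ears. Each genotype is 1 line, so the effect of the locus and that of any other difference between the lines cannot be told apart. The ears are bulk samples, in which more cells of a type and more RNA per cell cannot be told apart either.

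Libraries held 14625831 to 15675012 gene counts. Across genes, the correlation of log2 CPM (CPM are read counts scaled to library size) was lowest within a line for A12 replicates 1 and 2, at 0.937, where pairs between lines gave 0.906 to 0.940. KNOTTED 1, the homeobox marker of meristems, was present in all 6 libraries at 42.0 to 81.1 FPKM (fragments per kilobase, a length-scaled unit), lowest in A12 replicate 1. The 7 inflorescence regulators (2 tested, 1 lower) summed to 94.5 to 102 FPKM in B46 and to 45.1, 82.0 and 71.0 in A12. Markers of other tissues were not even across libraries. The 35 green tissue genes (chlorophyll-binding proteins and the rubisco small subunit) summed to 133, 157 and 212 FPKM in B46 replicates 1 to 3 and to 512, 104 and 211 in A12 replicates 1 to 3, and 4 of the 35 had 0 reads everywhere. The 15 floral MADS-box genes summed to 15.1 to 18.2 FPKM in B46 and to 654, 132 and 275 in A12, with 14 of 14 tested members higher in A12. Their part in the results below was not tested. Pollen, root and endosperm lists (14, 13 and 31 genes) summed to at most 2.53 FPKM in any library, and 0 of their genes passed the low-count filter.

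Of the 78 genes, 60 had enough reads to be tested with edgeR, 6 rose in A12, 2 fell and 52 were not called at an adjusted p under 0.05 (Benjamini-Hochberg over all genes tested). The genes that rose were a plastid thioredoxin-like gene, both genes of the sulfate-assimilation enzyme adenylylsulfate reductase, a pair of secretory protein disulfide isomerases, and a gene without a protein match. Those that fell were the less abundant of the type h1 thioredoxins tested and a plastid thioredoxin-like gene on chromosome 5. The called changes were small: their median size was 0.60 on the log2 scale, against 0.98 over all genes called. Of the 8 called genes, 1 reached a log2 fold change of 1. Over tested genes, called or not, the median size was 0.24 for members and 0.24 for all genes. The 8 calls are 13.3% of the members tested, where 9.86% of all 22741 genes tested were called. By direction, 10% of members rose, against 4.61% of all genes, and 3.33% fell, against 5.25% of all genes.

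Across the 60 tested genes the median log2 fold change (log2FC, A12 minus B46) was 0.13, against 0.01 over all genes. Of the 60, 42 lay above 0, or 70.0%, against 51.2% of all genes. In CPM, values of the lines did not overlap in 19 members, or 31.7%, where the share over all genes was 33.4%. In 15 of the 19, A12 lay above B46. That is 25% of members against 16.2% of all genes, while A12 lay below B46 in 4 members, or 6.67%, against 17.2%. In all, 17 members had an unadjusted p below 0.05, where 27.2% of all genes did. The calls depended on which libraries entered the fit. Leaving out A12 replicate 3, B46 replicate 1 or B46 replicate 2, edgeR called 0 members, with 16, 14 and 13 at an unadjusted p under 0.05, and the share of all genes called was 1.73%, 3.07% and 1.86%. Without A12 replicate 1 it called 13 members, the same 8 among them, with 19.3% of all genes called. Without B46 replicate 3 it called 4 (6.09% of all genes), and without A12 replicate 2 it called 7, 5 of them among the 8 (9.41% of all genes). DESeq2 called 11 of 63 members and 14.0% of all genes. On log2(FPKM + 0.1), limma called 4 members and 6.62% of all genes.

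**Figure D1:**
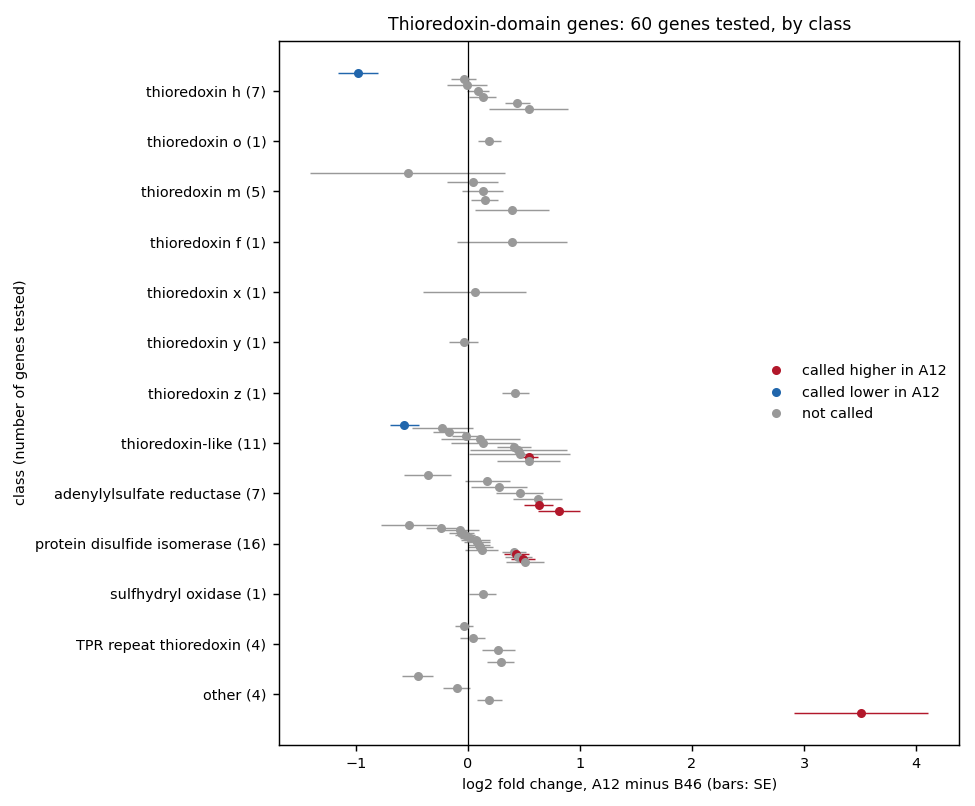
Log2 fold change (A12 minus B46, x axis) of the 60 thioredoxin-domain genes tested, grouped by class (y axis), with the standard error as a bar and called genes coloured. Most genes lie within 1 log2 unit of 0, and the gene without a protein match stands alone at 3.51.

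Levels per gene length show which members dominate the young ear. Summed over all 78 genes, the family reached 1390, 1360 and 1320 FPKM in B46 and 1670, 1470 and 1490 FPKM in A12, so every A12 library lay above every B46 library (ratio of means 1.14). Protein disulfide isomerases held 32.3% of this sum in B46 and 33.9% in A12, and type h thioredoxins 27.9% and 26.2%. Thioredoxin-like proteins followed with 13.1% and 13.3%. Plastid types f and x were the least abundant classes, at 2.54 ± 1.24 and 0.700 ± 0.280 FPKM in B46 (SD, n = 3). The most abundant gene was a thioredoxin H1 gene, Zm00004b034978, with a mean of 199 FPKM over the 6 libraries, or 13.7% of the family.

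**Figure D2:**
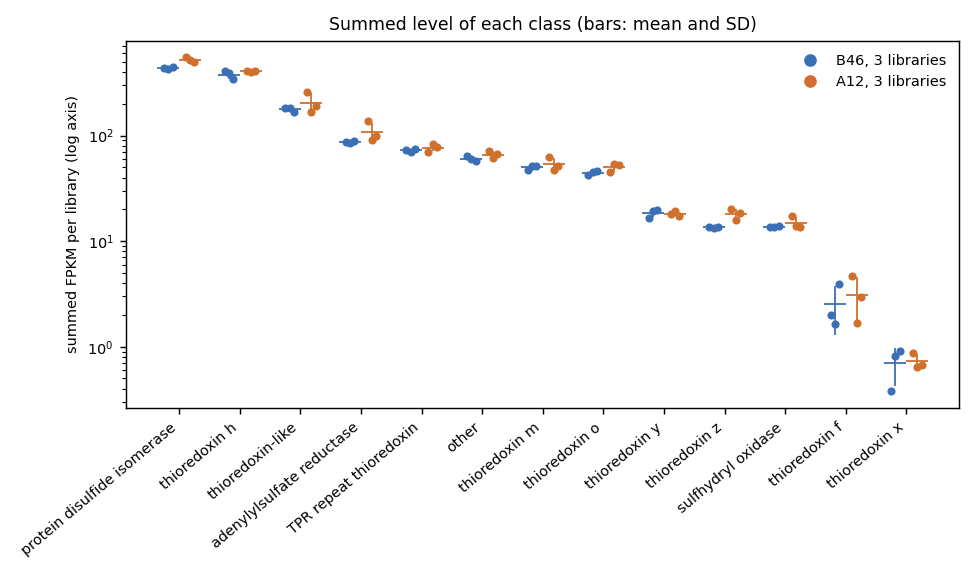
Summed FPKM of each class in each library (log axis), B46 in blue and A12 in orange, with the mean and SD as bars. Protein disulfide isomerases lie at 425 to 448 FPKM in B46 and 497 to 550 in A12, and types f and x lie at the bottom in both lines.

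Protein disulfide isomerases are the largest class, with 28 genes, of which 16 were tested, 2 rose, 0 fell and 14 were not called. The calls are 12.5% of the isomerases tested, against 9.86% of all genes tested. At an unadjusted p under 0.05 there were 5 isomerases, where 27.2% of all genes were. As a sum the class did not overlap between lines, at 438 ± 11.7 FPKM in B46 and 523 ± 26.3 in A12 (SD, n = 3). Abundant genes weigh most in this sum, and Zm00004b020481, which was not called, had means of 114 FPKM in B46 and 151 in A12. Both genes that rose match rice PDIL2 proteins, and they are the only 2 of the 28 annotated with the ERp29-type C-terminal domain. The PDIL2-1 gene Zm00004b030113 (chromosome 6, 127119712 to 127124972, plus strand) had read counts of 1500, 1336 and 1520 for B46 and of 2128, 1824 and 1904 for A12. All 3 A12 libraries were above all B46 libraries, 132 ± 11.6 against 93.9 ± 7.52 CPM (log2FC 0.49 ± 0.11 SE, adjusted p 0.031 by edgeR). The PDIL2-2 gene Zm00004b016834 (chromosome 3, 66184410 to 66187835, plus strand) had read counts of 710, 792 and 849 for B46 and of 1094, 926 and 1005 for A12. Again the lines did not overlap, with A12 the higher (log2FC 0.43 ± 0.11 SE, adjusted p 0.046 by edgeR). This call was kept in 1 of the 6 analyses that left out a library, that without A12 replicate 1, and the PDIL2-1 call in 2, those without A12 replicate 1 or 2. With limma on log2(FPKM + 0.1) 0 isomerases were called, and the limma adjusted p was 0.0729 for PDIL2-1 and 0.0927 for PDIL2-2.

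The most abundant isomerase, Zm00004b020481, matches the classical maize PDI, an abundant folding catalyst of the endoplasmic reticulum. It had FPKM values of 119, 111 and 112 for B46 and of 171, 144 and 139 for A12, without overlap, but edgeR gave an adjusted p of 0.055 (log2 fold change 0.41, SE 0.11). DESeq2 gave an adjusted p of 0.00961 for it, and edgeR without A12 replicate 1 gave 0.027. A less abundant gene with the same match, Zm00004b010235, averaged 45.4 ± 9.54 CPM over B46 and 64.9 ± 7.08 over A12 (adjusted p 0.10 by edgeR). PDIL5-1 (Zm00004b001199) had read counts of 344, 311 and 387 for B46 and of 431, 456 and 472 for A12 (log2FC 0.45 ± 0.12 SE, adjusted p 0.054 by edgeR). These genes and the 2 called ones, 5 of the 16 tested, had A12 above B46 in all libraries, where 16.2% of all genes did. The other 11 isomerases had log2 fold changes of -0.53 to 0.12. They include all tested PDIL1-4, PDIL1-5, PDIL2-3, PDIL5-2, PDIL5-3 and PDIL5-4 genes, with edgeR adjusted p of 0.56 or more. The lowest value belonged to PDIL1-2 (Zm00004b039554), the least abundant tested isomerase, with a mean of 5.08 ± 1.25 CPM for B46 and 3.51 ± 0.499 for A12 (adjusted p 0.23 by edgeR).

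Type h thioredoxins, mainly proteins of the cytosol, have 10 genes, of which 7 were tested, 0 rose, 1 fell and 6 were not called. Over all genes tested, 5.25% fell. The gene that fell is Zm00004b010662, a thioredoxin H1 match on chromosome 2 from 240079185 to 240080968 (plus strand). It had read counts of 217, 195 and 191 for B46 and of 78, 96 and 119 for A12, so every A12 library lay well below every B46 library. Its mean went from 13.0 ± 1.05 to 6.57 ± 1.21 CPM (SD, n = 3; log2FC -0.98 ± 0.18 SE, adjusted p 0.018 by edgeR). The call was lost without A12 replicate 3, B46 replicate 1 or B46 replicate 2, with edgeR adjusted p of 0.0558, 0.0803 and 0.0849. The dominant H1 gene, Zm00004b034978 on chromosome 7, had FPKM values of 210, 198 and 171 for B46 and of 206, 211 and 198 for A12, and the lines overlapped (log2FC 0.09 ± 0.10 SE, adjusted p 0.63 by edgeR). Its FPKM was 21.8 times that of the gene that fell, and the summed type h level was 378 ± 34.7 FPKM in B46 and 405 ± 8.71 in A12. The difference in fold change between these genes was not tested, and reads of similar H1 copies can be split between them. The wheat H-type match Zm00004b030950 was the next most abundant, at 94.9 FPKM in B46 and 104 in A12 (adjusted p 0.53 by edgeR).

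Thioredoxin H2-2 is matched by a gene in each of 2 places. Zm00004b011058, on chromosome 5 from 4010632 to 4011638 (plus strand), had read counts of 280, 273 and 268 for B46 and of 374, 310 and 382 for A12. The lines did not overlap, and the adjusted p was just above the threshold (log2FC 0.44 ± 0.11 SE, adjusted p 0.051 by edgeR; 0.0409 by DESeq2). The copy on chromosome 1, Zm00004b005462, averaged 28.4 ± 2.01 CPM over B46 and 27.5 ± 2.05 over A12 (adjusted p 0.84 by edgeR). The mitochondrial type o gene Zm00004b033189 had FPKM values of 42.3, 44.8 and 45.7 for B46 and of 45.0, 54.3 and 52.4 for A12. Here A12 replicate 1 lay among the B46 values (log2FC 0.19 ± 0.10 SE, adjusted p 0.27 by edgeR), and without that library the log2 fold change was 0.27 (adjusted p 0.0492 by edgeR).

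Plastid thioredoxins of types m, f, x, y and z had 9 tested genes, of which 0 were called by edgeR. At an unadjusted p under 0.05 there was 1, type z, while neither DESeq2 nor limma on FPKM called any (0 each). Types f and m activate carbon-fixing enzymes in the light, types x and y pass electrons to peroxide-removing enzymes, and type z works with the plastid RNA polymerase. The type z gene, annotated as CITRX (Zm00004b003785), had read counts of 268, 265 and 272 for B46 and of 375, 290 and 367 for A12. B46 libraries were nearly equal and all A12 libraries were above them (log2FC 0.42 ± 0.12 SE, adjusted p 0.074 by edgeR), and without A12 replicate 2 the adjusted p was 0.0458. Among type m genes, M1 (Zm00004b014516 and Zm00004b022161) and M2 (Zm00004b006783) lay at 15.3 to 17.5 FPKM in both lines, and the tested M3 and M-type genes at 0.718 to 1.53 FPKM. Type y (Zm00004b017704) was at 18.6 FPKM in B46 and 18.1 in A12 (adjusted p 0.88 by edgeR). Type x (Zm00004b040554) had 5 to 12 reads per library, and its log2FC was 0.06 ± 0.46 SE.

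NTRC (Zm00004b037506) joins a thioredoxin reductase and a thioredoxin in 1 plastid protein. It had read counts of 220, 214 and 186 for B46 and of 155, 128 and 152 for A12. A12 was lower in all libraries, without passing the threshold (log2FC -0.45 ± 0.14 SE, adjusted p 0.092 by edgeR).

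The 11 tested thioredoxin-like genes were split, with 1 rise, 1 fall and 9 not called, where 9.86% of all genes tested were called. Thioredoxin-like 1-1 (Zm00004b037621, chromosome 7, 178473042 to 178475087, plus strand) matches a rice plastid protein related to the atypical cysteine- and histidine-rich thioredoxins of Arabidopsis. It had FPKM values of 34.4, 36.7 and 34.8 for B46 and of 51.2, 51.0 and 51.4 for A12. The libraries of each line were tightly grouped and far apart from the other line, 55.9 ± 1.89 against 81.1 ± 0.5 CPM (log2FC 0.54 ± 0.08 SE, adjusted p 0.0095 by edgeR). It has the lowest adjusted p of the family. That value was 0.0637 when A12 replicate 3 was left out, and 0.0575 and 0.0617 when B46 replicate 1 or 2 was. The related thioredoxin-like 1-2 genes had similar log2 fold changes, 0.45 for Zm00004b001407 and 0.54 for Zm00004b033711, with standard errors of 0.43 and 0.28, and were not called (adjusted p 0.54 and 0.26 by edgeR). Thioredoxin-like 2 (Zm00004b030254) averaged 9.95 ± 1.32 CPM over B46 and 13.2 ± 0.806 over A12 (adjusted p 0.13 by edgeR).

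Thioredoxin-like 4 (Zm00004b014130) fell. It lies on chromosome 5 from 178918905 to 178929911 (minus strand). It had read counts of 340, 335 and 339 for B46 and of 244, 182 and 227 for A12. The B46 libraries hardly differed and every A12 library was below them (21.8 ± 0.455 against 14.7 ± 1.98 CPM; log2FC -0.57 ± 0.13 SE, adjusted p 0.036 by edgeR). The call was kept in 1 of 6 analyses without a library, that without A12 replicate 1. Another member nearby, PDIL5-3 (Zm00004b014034, 175502212 to 175505837, minus strand), had read counts of 186, 214 and 203 for B46 and of 189, 187 and 254 for A12, and the lines overlapped (log2FC 0.12 ± 0.15 SE, adjusted p 0.63 by edgeR). Of 13 members on chromosome 5, 10 were tested and 1 was called, where 9.86% of all genes tested were called.

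Adenylylsulfate reductase reduces activated sulfate to sulfite on the way to cysteine, and its protein carries a thioredoxin-type domain that supplies the electrons. The class has 7 genes, all tested, of which 2 rose and 5 were not called, where 4.61% of all genes tested rose. The 2 that rose are the only members of the class with the sulfate reductase domain, and both match rice APR1. Zm00004b036872 (chromosome 7, 156269187 to 156272425, minus strand) had read counts of 202, 210 and 246 for B46 and of 346, 292 and 335 for A12. Zm00004b009598 (chromosome 2, 208307915 to 208311510, minus strand) had read counts of 132, 173 and 218 for B46 and of 261, 304 and 314 for A12. In both genes each A12 library exceeded each B46 library. The first rose from 14.2 ± 1.49 to 21.9 ± 1.64 CPM (log2FC 0.63 ± 0.13 SE, adjusted p 0.026 by edgeR) and the other from 11.3 ± 2.73 to 19.8 ± 1.76 CPM (log2FC 0.81 ± 0.19 SE, adjusted p 0.040 by edgeR). The first call was kept in 3 of 6 analyses without a library, those without A12 replicate 1, A12 replicate 2 or B46 replicate 3, and the other in 2, those without A12 replicate 1 or B46 replicate 3.

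The other 5 are reductase-like (APRL) genes, which have the thioredoxin domain alone. The most abundant, APRL3 (Zm00004b023000), had FPKM values of 20.4, 20.9 and 19.6 for B46 and of 37.9, 20.5 and 25.3 for A12. A12 replicate 1 was far above the rest and A12 replicate 2 lay within the B46 range (log2FC 0.46 ± 0.21 SE, adjusted p 0.21 by edgeR). APRL5 on chromosome 5 (Zm00004b011040, 3673219 to 3676568, minus strand) stood at 7.59, 6.25 and 7.30 CPM across B46 and at 14.3, 8.84 and 9.41 across A12, without overlap (log2FC 0.62 ± 0.22 SE, adjusted p 0.12 by edgeR). APRL6 (Zm00004b038234) was the only gene of the class with a value below 0, with a log2FC of -0.36 ± 0.21 SE (adjusted p 0.33 by edgeR).

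Among the remaining classes, the 4 genes matching Arabidopsis TTL1, a thioredoxin with TPR repeats linked to stress and brassinosteroid responses in that plant, were tested and 0 were called by edgeR. At an unadjusted p under 0.05 there was 1, while neither DESeq2 nor limma on FPKM called any (0 each). The most abundant, Zm00004b027089, averaged 92.4 ± 6.56 CPM over B46 and 95.2 ± 10.3 over A12 (adjusted p 0.84 by edgeR). Sulfhydryl oxidase 1 (Zm00004b031198), a QSOX enzyme that makes disulfides, had FPKM values of 13.7, 13.7 and 13.8 for B46 and of 17.4, 13.9 and 13.7 for A12, so A12 replicate 1 stood apart from the other 5 libraries (log2FC 0.13 ± 0.12 SE, adjusted p 0.52 by edgeR). In CPM this gene counts as without overlap, though B46 replicate 3 and A12 replicate 3 both round to 32.6. The TXND9 homolog Zm00004b021418 was at 44.6 FPKM in B46 and 50.8 in A12 (adjusted p 0.31 by edgeR). A gene matching a purine synthesis enzyme, Zm00004b006062, also met the rule, and averaged 63.6 ± 2.81 CPM over B46 and 59.3 ± 8.20 over A12 (adjusted p 0.63 by edgeR).

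The largest log2FC among the members tested belonged to Zm00004b022831 (chromosome 4, 183226116 to 183227708, plus strand), which has the thioredoxin domain and no Swiss-Prot match. It had read counts of 4, 1 and 3 for B46 and of 48, 20 and 23 for A12. It was near the detection floor in B46 and low but clearly present in every A12 library (0.173 ± 0.101 against 2.05 ± 1.06 CPM; log2FC 3.51 ± 0.60 SE, adjusted p 0.015 by edgeR). With so few B46 reads the size depends on the scale, and limma gave 2.82 on log2(FPKM + 0.1) and 1.16 on log2(FPKM + 1). The edgeR call was kept without A12 replicate 1 or 2, and lost without any 1 of the other libraries (adjusted p 0.0501 to 0.0796 by edgeR).

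**Figure D3:**
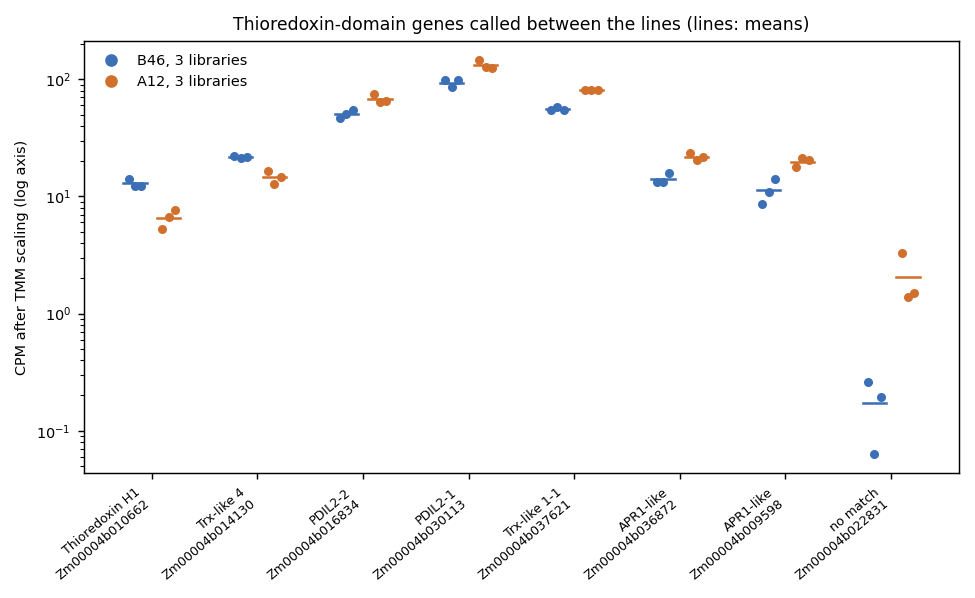
CPM after TMM scaling (log axis) of the 8 called genes in each library, B46 in blue and A12 in orange, with the mean as a line, ordered from the lowest to the highest fold change. In each gene the 3 values of one line lie apart from those of the other, with Zm00004b022831 at 0.0637 to 0.262 CPM in B46 and 1.39 to 3.27 in A12.

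The 18 members that were not tested were mostly silent. Of these, 11 had 0 reads in all 6 libraries, which allows up to 0.191 to 0.205 CPM per library. The highest, an M-type thioredoxin gene (Zm00004b038129), had 15 reads in B46 and 17 in A12. Protein disulfide isomerase matches made up 12 of the 18, and 10 of those 12 carry the thioredoxin domain alone, against 4 of the 16 isomerases tested. Their models are also shorter, with a median of 894 nt against 1846 nt. Neighbouring thioredoxin H1 genes on chromosome 7 also stood at opposite ends of the range of levels. Zm00004b034978 is the most abundant member, and Zm00004b034983, which starts at 13245655 where the former ends at 13113033, had 0 reads. Reads shared by such copies cannot be told apart here.

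Tested genes with a common Swiss-Prot match were compared as presumed close relatives. Of 14 such matches, 9 had all their genes on the same side of 0 and 5 had genes on both sides. Among all tested members 42 of 60 lay above 0, and whether relatives share a side more often than other members was not tested. APR1 was the only match with 2 called genes. In PDIL2-1 the abundant gene rose (0.49) while Zm00004b036183, with an FPKM 3.96 times lower, stood at a log2FC of -0.24 ± 0.14 SE (adjusted p 0.32 by edgeR). For APRL3, APRL5, PDI, thioredoxin-like 1-2 and thioredoxin M1, both genes lay above 0 and 0 were called by edgeR.

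Several members differed more within A12 than between the lines. With 0.5 CPM added to each value, 8 of the 60 tested members were at least 2-fold apart between A12 replicates 1 and 2. All 8 were higher in replicate 1, as were 1599 of the 2339 genes that far apart among all genes tested. Of 22 tested members with a plastid name, 5 were that far apart, or 22.73%, against 7.89% of the other 38 members and 10.29% of all genes. Thioredoxin-like 1-2 Zm00004b001407 had read counts of 720, 615 and 415 for B46 and of 1296, 371 and 627 for A12, so the A12 libraries lay on both sides of B46. CXXS1, a thioredoxin-like protein (Zm00004b040336), had read counts of 396, 405 and 362 for B46 and of 637, 210 and 356 for A12. Type f (Zm00004b026682) had read counts of 33, 28 and 71 for B46 and of 82, 28 and 56 for A12. HCF164 (Zm00004b011171), a thylakoid protein needed to build the cytochrome b6f complex, had read counts of 26, 37 and 47 for B46 and of 74, 22 and 49 for A12. The summed green tissue and floral MADS-box markers took the same order in A12, highest in replicate 1 and lowest in replicate 2. KNOTTED 1 and the summed inflorescence regulators took the opposite order, lowest in replicate 1 and highest in replicate 2. The part of these markers in the values was not tested. None of these 8 genes was called by edgeR. The called gene Zm00004b022831 stood at 3.27 and 1.39 CPM in A12 replicates 1 and 2. It is more than 2-fold apart in plain CPM and missed the mark only through the added 0.5 CPM.

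**Figure D4:**
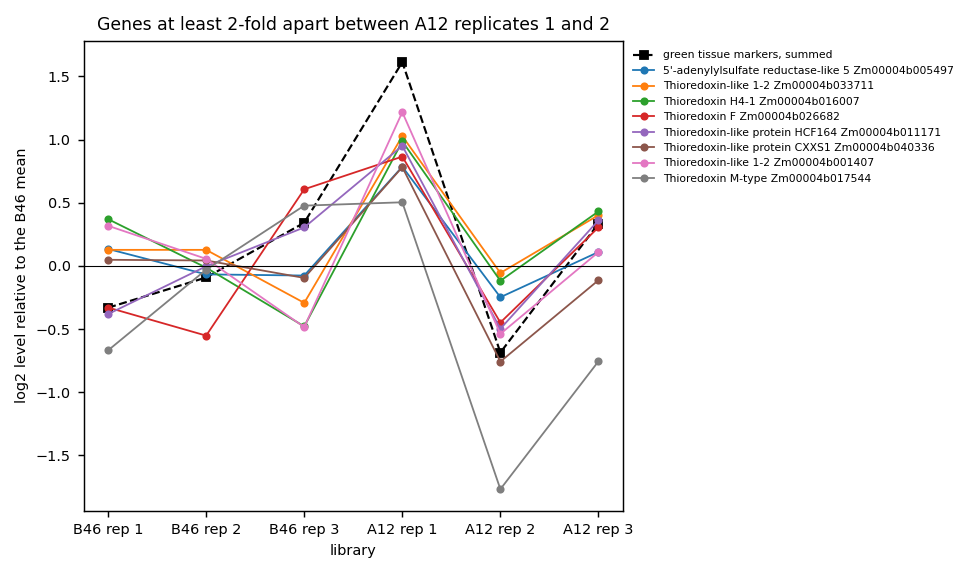
Log2 level relative to the B46 mean (y axis) in each library (x axis) for the 8 members at least 2-fold apart between A12 replicates 1 and 2 (CPM plus 0.5), with the summed FPKM of the green tissue markers as a dashed line. Among the A12 libraries every gene is highest in replicate 1 and lowest in replicate 2, with the largest difference, 2.27, in the M-type gene Zm00004b017544.

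Genes that work with thioredoxins and isomerases were read from the same fit as 9 lists. Of 96 tested partner genes, 3 rose, 4 fell and 89 were not called, where 4.61% of all genes rose and 5.25% fell. The median log2 fold change of the partner genes was 0.06. Thioredoxin reductases, both NADPH- and ferredoxin-dependent, had 7 tested genes with log2 fold changes of -0.07 to 0.52. The thiol oxidases, ERO1 of the endoplasmic reticulum and the ERV1 enzyme, had 3 tested genes at 0.05 to 0.17. For both lists edgeR called 0, with 0 at an unadjusted p under 0.05, while neither DESeq2 nor limma on FPKM called any (0 each). The NADPH-dependent reductases NTRA (Zm00004b030006) and NTRB (Zm00004b014909) were called when A12 replicate 1 was left out (adjusted p 0.0214 and 0.0201 by edgeR). For NTRB that library stood at 51.9 CPM, where the other A12 libraries had 110 and 92.1 and B46 67.4 to 78.0. Peroxiredoxins and glutathione peroxidases, which remove peroxides with electrons from thioredoxin, had 6 and 5 tested genes and 0 called by edgeR, DESeq2 or limma on FPKM, with 2 and 0 at an unadjusted p under 0.05. The list of plastid enzymes under thioredoxin control had 9 tested genes and 0 calls by edgeR and limma on FPKM, with 1 by DESeq2 and 1 at an unadjusted p under 0.05. That 1 gene, Zm00004b012973, and Zm00004b024302 match GAPCP1, the plastid enzyme of glycolysis, and not the photosynthetic enzymes that thioredoxin controls.

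Calls among the partners came from 4 lists, where 9.86% of all genes tested were called. Methionine sulfoxide reductases, which repair oxidised methionine and are recharged by thioredoxin, had 1 rise among 6. MSRB5 (Zm00004b001589) had read counts of 275, 280 and 280 for B46 and of 473, 386 and 455 for A12, without overlap (log2FC 0.72 ± 0.11 SE, adjusted p 0.010 by edgeR). In the list of chaperones and quality control genes of the endoplasmic reticulum, 1 of 15 tested genes fell, Derlin-2.2 (Zm00004b005790), part of the export of misfolded proteins. The 15 include Zm00004b030194, which entered by a Der1-like domain in its annotation but matches argonaute 1B, a small-RNA effector. Derlin-2.2 went from 40.7 ± 5.66 to 23.4 ± 0.852 CPM (log2FC -0.80 ± 0.13 SE, adjusted p 0.012 by edgeR), and the list's median was -0.17. Of 5 genes with other thioredoxin-fold domains, 2 fell. Nucleoredoxin 1-2 (Zm00004b001758) had read counts of 173, 157 and 216 for B46 and of 73, 52 and 83 for A12 (log2FC -1.33 ± 0.22 SE, adjusted p 0.013 by edgeR), and Zm00004b004463 had 129, 127 and 132 reads against 67, 69 and 53 (adjusted p 0.024 by edgeR). Glutaredoxins, the related family that draws on glutathione, had 2 rises and 1 fall among 40. GRXC3 (Zm00004b007664) averaged 62.8 ± 11.5 CPM over B46 and 41.3 ± 3.46 over A12 (log2FC -0.61 ± 0.14 SE, adjusted p 0.042 by edgeR), Zm00004b004487 rose by a log2FC of 1.11 ± 0.21 SE (adjusted p 0.022 by edgeR) and Zm00004b004064 by a log2FC of 2.22 ± 0.40 SE (adjusted p 0.018 by edgeR). All 7 partner calls were lost without A12 replicate 3, with edgeR adjusted p of 0.0556 to 0.168, where 1.73% of all genes were called.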

How the data were processed

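RNA of 6 libraries, 3 per line, was analysed. The authors deposited raw counts per gene and FPKM values of the same genes. Per the submitters' processing notes, HISAT2 2.0.5 and DESeq2 1.20.0 were among the tools. Read counter, strand setting and genome build: not given in the sources used here. Antisense or near-identical genes therefore cannot be told apart by their reads, and coordinates follow the count table. Per the labels, the 3 pools of a line are separate, and p-values measure the spread between them.

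Counts were fitted in R 4.3.3 with edgeR 4.0.16: default expression filter, which left 22741 genes, TMM scaling, two-sided quasi-likelihood F-test without covariates, and Benjamini-Hochberg adjustment over all genes tested. Log2 fold changes are A12 minus B46 with standard error (SE). CPM are TMM-scaled counts per 1000000, given as mean ± SD. Levels between genes were compared with the deposited FPKM, which carry no TMM scaling. A floor of 3 counts per library was used for genes without reads, and it covers counting error only. Alternatives used DESeq2 1.42.0 and limma 3.58.1 on log2(FPKM + 0.1), keeping genes whose mean FPKM was 0.5 or more. The procedure was also run on simulated counts, and no statement here rests on that run. Replicate numbers were not treated as pairs.

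The members, lists and partner genes were chosen with earlier results of these data known. The text names all called members, the most abundant tested gene of each class and up to 3 called genes per partner list. It also names tested members on chromosome 5 in its first 5 Mb and between 145 and 185 Mb. Uncalled members with an unadjusted p under 0.05 and a log2 fold change of at least 1 would be named, but none met this. Others were named after their values were seen. Lists written as protein names were read from the Swiss-Prot match alone, since Pfam names of other families hold the same words.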

Additional observations from a re-analysis of the deposited data

How the results depend on the processing

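Among members, 6 were called higher and 2 lower. Leaving out 1 library gave 0 to 11 higher and 0 to 2 lower, where the other settings gave 1 to 9 higher and 0 to 2 lower. Over all genes, leaving out 1 library gave 0.785% to 10.4% higher and 0.934% to 8.88% lower. The other settings gave 1.67% to 6.93% of all genes higher and 2.23% to 7.09% lower. Limma called 3 higher and 1 lower on log2(FPKM + 0.1), 1 and 1 without a low-value filter (3.89% of all genes), and 3 and 2 on log2(FPKM + 1) (7.47% of all genes). DESeq2 called 11 of 63 members, the same 8 among them. Same-numbered libraries showed no shared deviation (correlations of -0.12, -0.0136 and 0.00541), where unlike-numbered pairs gave -0.119 to 0.152. With 3 libraries per line this does not settle whether the numbers pair them. With the replicate block edgeR called 2 members higher and 0 lower, 16 had an unadjusted p below 0.05, and 4.25% of all genes were called. Among partner genes, 3 higher and 4 lower, DESeq2 called 5 higher, where it called 6.93% of all genes higher. The replicate block left 1 higher and 2 lower, against 1.89% and 2.36% of all genes. Leaving out 1 library gave 0 to 8 partner genes higher and 0 to 6 lower, beside the shares of all genes given above. Directions of the called members and partners held under all 14 alternatives that gave a value. Fold changes without 1 library were computed for the members named by rule. Among those, the sign of 6 that were not called turned: Zm00004b027089 ranged from -0.02 (without A12 replicate 2 or B46 replicate 2) to 0.13, Zm00004b014516 from -0.26 (without A12 replicate 1) to 0.21, with -0.04 without B46 replicate 3, Zm00004b017704 from -0.11 to 0.01 (without B46 replicate 3), Zm00004b014034 from -0.0014 (without A12 replicate 3) to 0.19, Zm00004b026682 from -0.02 (without A12 replicate 1) to 0.91, and Zm00004b040554 from -0.23 (without B46 replicate 1) to 0.28, with -0.07 without A12 replicate 1. The cause of these shifts was not tested. Standard errors were wide for members with few reads, such as types f (0.49) and x (0.46), so their values limit a difference only loosely.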
